A study of Mus musculus with 48 samples.

Results

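Macrophage and C1q genes are followed here through every condition of a mouse melanoma experiment. The set was chosen by name, with earlier results of these data known, and holds 10 of the 55450 genes counted. It comprises the macrophage genes Adgre1, Csf1r, Cd68, Mrc1, Cd163, Msr1 and Mertk, and the complement genes C1qa, C1qb and C1qc. Each of the 10 had enough counts to be tested in both experiments, with at least 75 counts in every library. No member passed the test in any of the 20 comparisons. All 10 were fitted higher in IgG-treated than in untreated tumors at day 1, day 3 and, in wild-type mice, day 7. At 6 h 5 were higher and 5 lower, and in iNOS knockout mice at day 7 8 were higher and 2 lower. The spread between tumors was wide, and the members' levels went together from tumor to tumor.

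Macrophages are phagocytes that depend on signals through the CSF1 receptor, the product of Csf1r. They clear dying cells, a step in which Mertk acts as an engulfment receptor, and they recognise debris through the scavenger receptors encoded by Cd163, Msr1 and Mrc1. Adgre1 encodes the mouse surface marker F4/80 and Cd68 encodes a protein of late endosomes and lysosomes. C1qa, C1qb and C1qc encode the chains of C1q, the recognition molecule of the classical complement pathway, which binds antibody complexes and dying cells. Macrophages are a main source of C1q in tissues, and macrophages rich in C1q transcripts are found in many solid tumors.

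RNA was sequenced from 48 subcutaneous tumors of B16-D5, a subclone of the B16 mouse melanoma line, with 3 tumors of separate mice in each of 16 conditions. The mice were C57BL/6J (WT) or iNOS KO animals, bought at 4 weeks of age and kept for 2 weeks, and tumor cells were injected 8 days before therapy. They were left untreated or given 250 µg of IgG or of anti-PD-1 antibody, on a schedule of days 0 and 3. Tumors taken at 6 h and day 1 came before the day 3 dose. Whether tumors taken at day 3 had received it is not stated. Experiment 1 covered WT mice that were untreated at 0 h, or untreated, IgG-treated or anti-PD-1-treated at 6 h, day 1 and day 3. Experiment 2 covered the same treatments in WT and iNOS KO mice at day 7. The knockout lies in the host and not in the injected tumor cells.

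The titles of the samples decided the conditions, apart from the times named below. Other label fields disagreed with them: the treatment field matched in 14 of 48 samples, and 9 samples titled KO had WT as their genotype. The titles of experiment 2 give no time. The titles of the tumors called 6 h name the day of the first dose and no hour. Both times stand in the study's figure legends and not in its methods. The legends give the later time for anti-PD-1-treated tumors of both genotypes. They do not name untreated or IgG-treated WT tumors at that time, so it is assumed for these. Nos2, the gene of iNOS, had between 1.15 and 7.28 CPM (counts scaled to a common library total) in experiment 2. Its mean in tumors labelled iNOS KO was above that in WT without treatment (3.86 against 2.74 CPM) and after IgG (4.74 against 2.56 CPM). After anti-PD-1 it was below that in WT (2.62 against 4.75 CPM). The tumors overlapped each time. Counts per gene cannot separate host from tumor transcripts or show a deleted exon. Libraries held 25574203 to 47687872 counts in experiment 1 and 11625862 to 40959309 in experiment 2. Melanoma genes, which mark the tumor cells, summed to between 9306 and 20436 CPM over all tumors. In experiment 2 the genes of sensory receptors (smell, taste and pheromones), which serve here as a measure of background, took 3710 CPM in WT anti-PD-1 replicate 3, 1304 CPM in WT anti-PD-1 replicate 4 and 916 CPM in untreated iNOS KO replicate 1.

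The 3 C1q genes lie side by side on the minus strand of chromosome 4 (chr4:136880129-136898803, GRCm38, 18.7 kb) in the order C1qb, C1qc, C1qa, and no other gene is annotated inside the stretch. The members lie on 7 chromosomes in all. Sequences upstream of the transcription start were found in RefSeq for 6 of the 10 members. Shown here are the 250 bases before the start of C1qb, whose product is needed for C1q to assemble, of Cd68, a general macrophage gene, and of Mertk, the member whose level varied least. They run 5′ to 3′ toward the start, and capitals mark 2 short motifs: GAGGAA (reverse TTCCTC), the core bound by ETS factors of the PU.1 kind, and TGCTGA (reverse TCAGCA), part of the site bound by MAF factors. Both strands were searched, and the motifs do not overlap in these windows.
C1qb, chr4:136886201-136886450, minus strand, GRCm38.p6: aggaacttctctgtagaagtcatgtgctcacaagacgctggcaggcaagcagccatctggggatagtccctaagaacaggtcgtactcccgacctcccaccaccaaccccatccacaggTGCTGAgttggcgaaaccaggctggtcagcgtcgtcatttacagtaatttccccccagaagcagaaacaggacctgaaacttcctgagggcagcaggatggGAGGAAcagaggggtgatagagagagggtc
Cd68, chr11:69666171-69666420, minus strand, GRCm38.p6: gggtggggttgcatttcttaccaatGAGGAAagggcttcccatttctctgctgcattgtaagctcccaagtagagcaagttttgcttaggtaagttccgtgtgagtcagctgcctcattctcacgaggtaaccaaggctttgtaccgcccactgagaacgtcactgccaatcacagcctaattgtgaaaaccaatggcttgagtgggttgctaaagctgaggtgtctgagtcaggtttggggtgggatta
Mertk, chr2:128698665-128698914, plus strand, GRCm38.p6: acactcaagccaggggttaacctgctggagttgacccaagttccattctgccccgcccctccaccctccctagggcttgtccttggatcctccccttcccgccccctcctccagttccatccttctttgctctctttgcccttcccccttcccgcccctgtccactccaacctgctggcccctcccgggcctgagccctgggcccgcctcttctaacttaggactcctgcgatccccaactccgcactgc
The C1qb window held GAGGAA 30 to 25 bases before the start and TGCTGA 131 to 126 bases before it. The Cd68 window held GAGGAA 225 to 220 bases before the start, and the Mertk window held neither motif. Of the windows found but not shown, that of Mrc1 held the reverse of GAGGAA at 3 places and that of C1qc at 1. The Cd163 window held neither motif. Among 32851 windows of the same length, 23.3% held GAGGAA and 16.1% held TGCTGA, so a match is common and is given only as a description.

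Per kilobase of exon, C1qb was the most abundant member, with a median of 85.4 CPM per kb over the 30 tumors of experiment 1, followed by C1qa (74.3 CPM per kb) and Cd68 (60.3 CPM per kb). C1qc (21 CPM per kb) and Mrc1 (19.1 CPM per kb) were close to each other, and Csf1r stood at 10.6 CPM per kb. Adgre1, Cd163 and Mertk had medians of 7.75, 6.87 and 4.71 CPM per kb. Msr1 was lowest, at 1.26 CPM per kb. In experiment 2, C1qb (63.8 CPM per kb) and Cd68 (60.6 CPM per kb) were the most abundant and Msr1 (1.27 CPM per kb) the least.

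The members differed in how far they varied. In experiment 1, the highest tumor had 18.6 times the level of the lowest for Cd163, 13.1 times for C1qc and 8.93 times for C1qa, but only 2.73 times for Mertk. In experiment 2 the same ratio was 24.2 for C1qa, 20.1 for Csf1r and 19.9 for Cd163, against 2.53 for Mertk. Much of this spread lay between tumors of the same condition. The median SD within a condition on the log2 scale was 0.74 for C1qa and 0.20 for Mertk in experiment 1, and 1.09 and 0.21 in experiment 2.

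**Figure D1:**
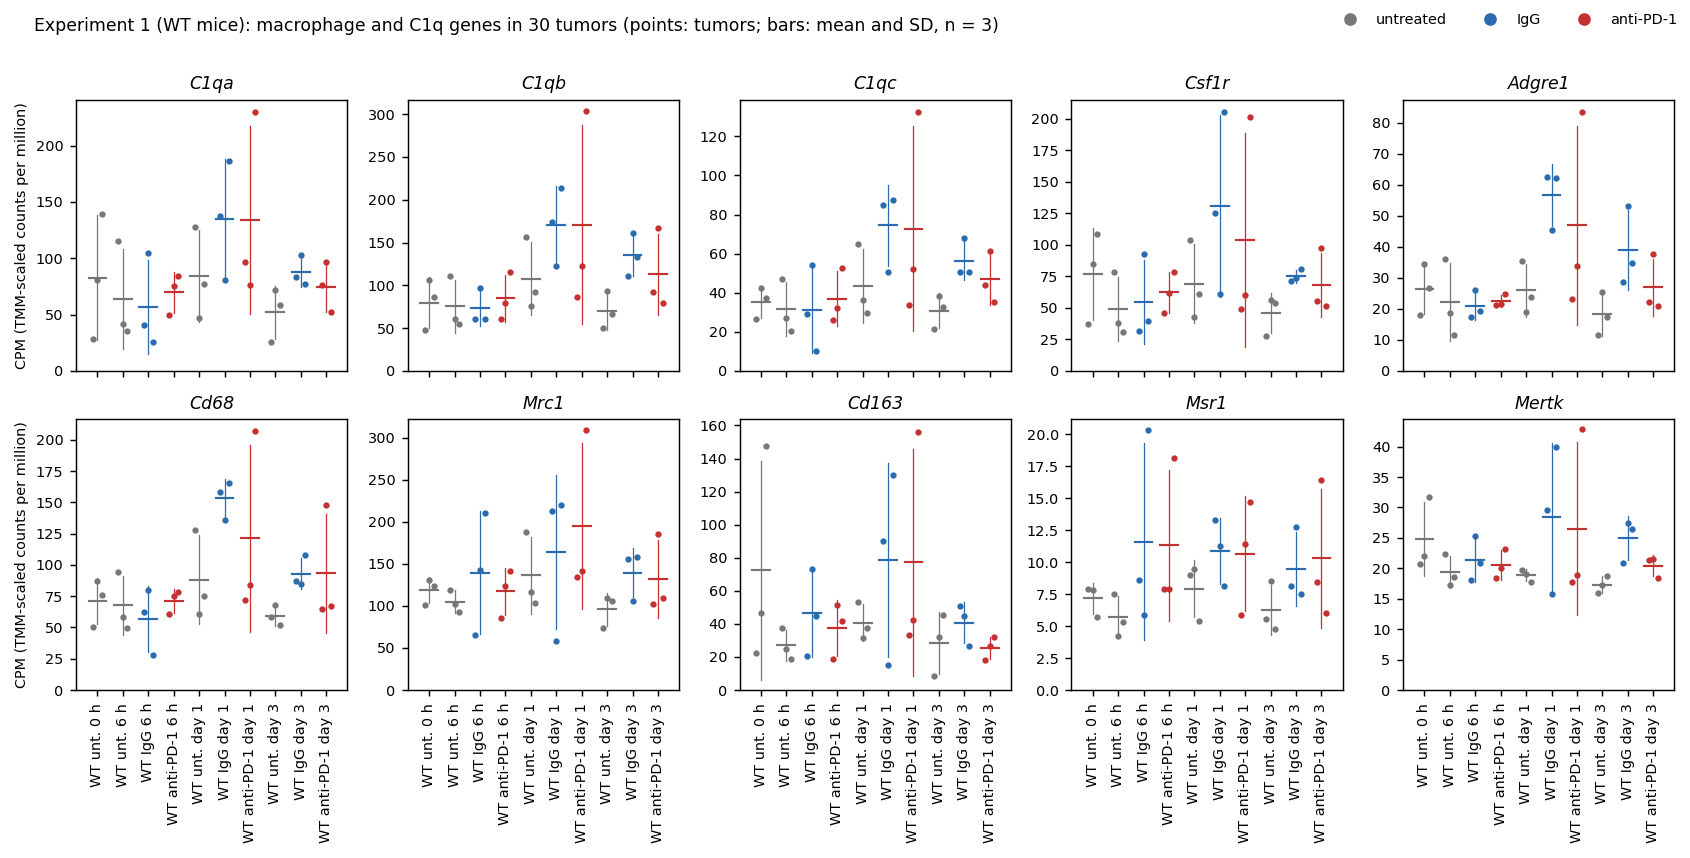
Level of each of the 10 genes in the 30 WT tumors of experiment 1, in CPM, with 1 point per tumor and the mean and SD of each condition (n = 3). The highest point of most panels is anti-PD-1 day 1 replicate 5, with 229 CPM of C1qa, while Mertk stays between 15.7 and 42.9 CPM.

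C1qa, C1qb and C1qc followed the same course in experiment 1. C1qa averaged 82.7 ± 55.6 CPM in untreated tumors at 0 h, 63.9 ± 44.3 CPM at 6 h, 84.2 ± 41 CPM at day 1 and 51.9 ± 23.6 CPM at day 3 (SD, n = 3). After IgG it averaged 56.8 ± 41.9 CPM at 6 h, 135 ± 52.9 CPM at day 1 and 87.6 ± 13.2 CPM at day 3. After anti-PD-1 it averaged 69.8 ± 18, 134 ± 83.2 and 74.8 ± 22.2 CPM at the same times. The day 1 values after either antibody were the highest and untreated day 3 the lowest. C1qb ranged from 70.0 ± 22.3 CPM (untreated, day 3) to 171 ± 116 CPM (anti-PD-1, day 1), and C1qc from 30.8 ± 8.81 CPM (untreated, day 3) to 74.4 ± 20.5 CPM (IgG, day 1).

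Csf1r, which macrophages need to survive, averaged 76.7 ± 36.2 CPM in untreated tumors at 0 h, 49.1 ± 25.7 CPM at 6 h, 69.1 ± 31.3 CPM at day 1 and 45.9 ± 16.1 CPM at day 3. After IgG the means were 54.6 ± 33.1, 131 ± 72.1 and 75 ± 5.02 CPM, and after anti-PD-1 they were 62.2 ± 16, 104 ± 84.8 and 67.9 ± 25.4 CPM at 6 h, day 1 and day 3. Adgre1, Cd68, Cd163 and Mertk also had their highest mean in IgG-treated tumors at day 1, with 56.8 ± 9.92, 153 ± 15.2, 78.5 ± 58.6 and 28.4 ± 12.1 CPM. Mrc1 was highest after anti-PD-1 at day 1 (195 ± 98.7 CPM), and Msr1 after IgG at 6 h (11.6 ± 7.69 CPM). Csf1r overlaps Hmgxb3 on the opposite strand (up to 59.5 CPM), and whether strand was used in counting is not given in the sources used here. Of the 10 members, 7 had their lowest mean in untreated tumors at day 3. When the 10 conditions were ordered by their mean, none of the 9 neighbouring pairs was separated beyond mean ± SD for any member.

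Single tumors set many of these means. Summed over the 10 genes, anti-PD-1 day 1 replicate 5 reached 1680 CPM, against 552 and 644 CPM in the other tumors of its condition. IgG day 1 replicate 6 reached 1319 CPM and replicate 2 reached 1088 CPM. IgG day 1 replicate 4 was unlike both: Cd68 (136 CPM) and Adgre1 (45.4 CPM) were high, while Mrc1 (58.3 CPM) and Mertk (15.7 CPM) were the lowest of the 30 tumors and Cd163 was 14.9 CPM. The same tumor had the highest Nos2 of experiment 1 (41 CPM), and was singled out after its values were seen.

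Comparisons were made with edgeR's quasi-likelihood test, with Benjamini-Hochberg adjustment over all genes and a threshold of 0.05. Among 200 tests (10 members in 20 comparisons), 0 passed, 17 had an unadjusted p under 0.05 (as did 8.51% of tests over all genes), and the smallest adjusted p was 0.26. DESeq2's Wald test passed 1 member, Mrc1 in anti-PD-1 against IgG in WT at day 7. The share of all genes that passed by that test is not given here. A second description, which uses no model, is whether the 3 tumors of each condition overlap. Over 15 pairs of conditions, 15 of 150 member values did not overlap, 12 of them higher and 3 lower in the condition named first. Over all genes, 5.5% of values were higher and 6% lower without overlap in the same pairs, so the members' total was near the background. In bulk tumors, fewer macrophages and less RNA per macrophage cannot be told apart.

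**Figure D2:**
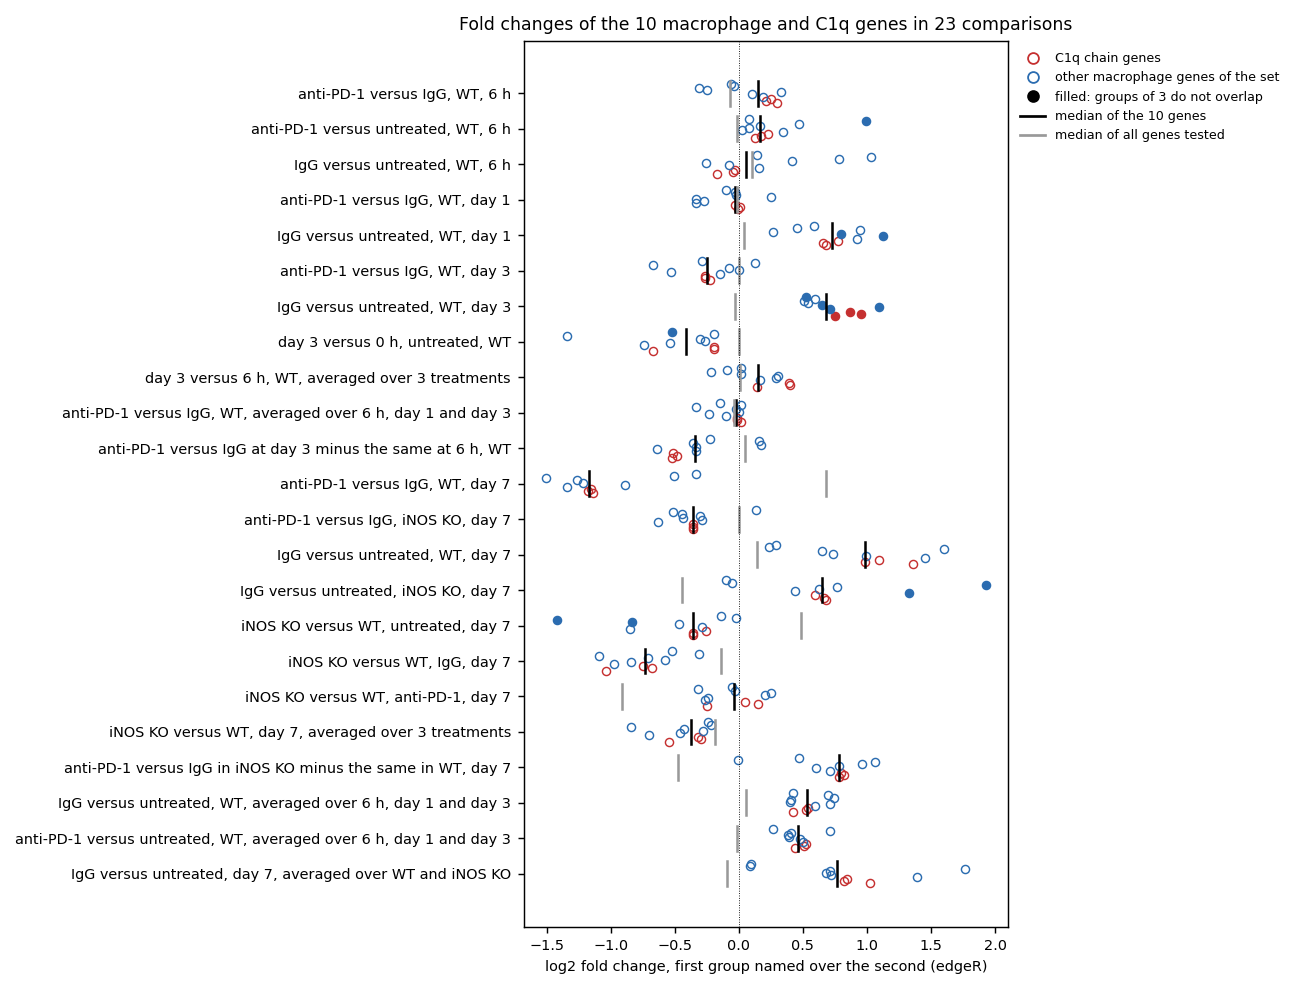
Log2 fold changes of the 10 genes (points) in 23 comparisons (rows), with the median of the 10 genes (black bar) and of all genes tested (grey bar). Filled points mark genes whose conditions do not overlap, and 7 of them stand in IgG against untreated at day 3.

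The comparison of IgG-treated with untreated tumors gives the level that antibody-treated controls had beside tumors left alone. At day 3, C1qb was 111, 161 and 134 CPM after IgG and 49.7, 93.9 and 66.3 CPM without treatment. C1qa was 83.4, 102 and 77 CPM after IgG and 25.8, 71.6 and 58.4 CPM without. The chain that completes the C1q subunit, C1qc, was 50.7, 68 and 50.4 CPM after IgG and 21.2, 38.5 and 32.8 CPM without. In each case every IgG-treated tumor was above every untreated one. The log2 differences were 0.95 (SE 0.41) for C1qb, 0.75 (SE 0.56) for C1qa and 0.87 (SE 0.47) for C1qc, each with an adjusted p of 1 in edgeR.

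The surface and lysosomal markers and the growth factor receptor gave the same picture at day 3. Adgre1 was 28.7, 53.3 and 34.9 CPM after IgG and 11.7, 25.4 and 17.5 CPM without treatment, a log2 difference of 1.10 (SE 0.41, unadjusted p 0.013, adjusted p 1, edgeR). Csf1r was 71, 73.5 and 80.7 CPM against 27.4, 56.4 and 54 CPM, a log2 difference of 0.71 (SE 0.52). Cd68 was 87.3, 84.4 and 108 CPM against 58.6, 68 and 51.8 CPM, with a log2 difference of 0.65 (SE 0.38). Mertk was 20.9, 27.5 and 26.5 CPM against 15.9, 17.3 and 18.8 CPM, a log2 difference of 0.53 (SE 0.28). The scavenger receptor genes Mrc1, Cd163 and Msr1 overlapped between the conditions. In all, 7 of 10 members did not overlap and were higher after IgG, where 6.53% of all genes tested were. The members' levels went together from tumor to tumor, so these 7 are not separate observations and the share is no test of them. The members' median log2 difference was 0.68, against -0.03 over all genes. No gene of the 26848 tested passed the adjusted threshold in this comparison (0%). At an unadjusted p under 0.05, 2 members were higher (Adgre1 and C1qb), beside 1.36% of all genes.

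At day 1 all 10 members again had a positive log2 difference between IgG and untreated tumors, with a median of 0.73 against 0.04 over all genes. Adgre1 was 62.7, 45.4 and 62.3 CPM after IgG and 35.4, 18.9 and 23.8 CPM without treatment. Cd68 was 158, 136 and 165 CPM after IgG and 128, 60.5 and 75.6 CPM without. Neither gene overlapped, which held for 2 of 10 members and for 6.26% of all genes in that direction. The log2 differences were 1.13 (SE 0.41) for Adgre1 and 0.80 (SE 0.38) for Cd68, both with an adjusted p of 0.86 in edgeR, and 0 of 10 members passed (0% of all genes). At an unadjusted p under 0.05, 3 members were higher (Adgre1, Cd68 and Mertk), beside 4.01% of all genes. Without single tumors the day 1 median ranged from 0.45 (without IgG replicate 6) to 1.16 (without untreated replicate 1), and with the replicate block 1 member was negative at day 1 and 1 at day 3. At 6 h the median was 0.06, 5 members were positive and 5 negative, and no member separated the conditions, where 5.87% of all genes were higher without overlap.

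Averaged over 6 h, day 1 and day 3, a comparison added after the values were seen, all 10 members were higher after IgG than without treatment, by 0.40 to 0.74 on the log2 scale. The median was 0.53, against 0.05 over all genes. Adgre1 (0.71, SE 0.23), Msr1 (0.69, SE 0.26), Mertk (0.42, SE 0.16) and C1qb (0.52, SE 0.24) had unadjusted p-values under 0.05, and all 4 had an adjusted p of 0.53 in edgeR. An unadjusted p under 0.05 with a higher level was reached by 5.95% of all genes. The same average for anti-PD-1 against untreated, which shares the untreated tumors, gave a median of 0.46 with all 10 members positive. The unadjusted threshold was passed by 2 members (C1qb and Msr1), beside 2.08% of all genes in that direction.

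Anti-PD-1 against IgG asks what the blocking antibody adds to its control, and no difference was detected in experiment 1. At 6 h, C1qa was 49.7, 75.2 and 84.5 CPM after anti-PD-1 and 40.4, 104 and 25.7 CPM after IgG, a log2 difference of 0.30 (95% interval -0.85 to 1.44). At day 1 it was 96.3, 76.3 and 229 CPM against 138, 80.7 and 186 CPM, a log2 difference of -0.01 (95% interval -1.15 to 1.13). At day 3 it was 75.9, 96.4 and 52.1 CPM against 83.4, 102 and 77 CPM, a log2 difference of -0.23 (95% interval -1.37 to 0.91). The 2 conditions overlapped at all times, and the intervals are too wide to show that the levels were alike.

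Csf1r gave log2 differences of 0.19 (SE 0.52) at 6 h, -0.33 (SE 0.52) at day 1 and -0.15 (SE 0.52) at day 3 between anti-PD-1 and IgG. Over all members the median was 0.15, -0.03 and -0.25 at these times, beside -0.07, -0.01 and 0.00 over all genes. Averaged over the 3 times, the members lay between -0.34 (Cd163) and 0.02 (C1qa and Msr1), with a median of -0.02, and C1qb had an interval of -0.50 to 0.47. At an unadjusted p under 0.05, 0 members were lower, beside 4.85% of all genes. In none of the 3 comparisons did a member separate the conditions, where 2.13%, 2.77% and 3.5% of all genes were higher and 5.57%, 3.72% and 4.83% lower without overlap. The day 3 difference minus the 6 h difference had a median of -0.35 and adjusted p-values of 1 for all members (edgeR).

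Against untreated tumors at 6 h, anti-PD-1 gave a median log2 difference of 0.16, and Msr1 was the member that separated the conditions. It was 7.90, 7.87 and 18.2 CPM after anti-PD-1 and 7.50, 4.25 and 5.34 CPM without treatment, a log2 difference of 0.99 (SE 0.44, unadjusted p 0.036, adjusted p 1, edgeR). Without overlap, 2.67% of all genes were higher. The distance between the conditions was small, since 7.87 and 7.50 CPM are the nearest values, and replicate 5 was well above both other treated tumors. After IgG at the same time, Msr1 was 8.62, 5.88 and 20.4 CPM, a log2 difference from untreated of 1.03 (SE 0.44, unadjusted p 0.030, adjusted p 0.76, edgeR), with overlap.

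Without treatment, the members were lower at day 3 than at 0 h, with a median log2 difference of -0.41 and all 10 negative. Mertk was 15.9, 17.3 and 18.8 CPM at day 3 and 20.8, 22 and 31.7 CPM at 0 h, a log2 difference of -0.52 (SE 0.28, adjusted p 0.70, edgeR). It was the member whose tumors did not overlap, beside 4.32% of all genes that were lower. Cd163 had the widest difference, -1.34, with 148 CPM in 0 h replicate 3 against 22.5 and 46.8 CPM in the other 0 h tumors. The 0 h tumor with that value also had the most transcripts of skeletal muscle genes (5024 CPM) and keratinocyte genes (3738 CPM) of its experiment, and the part of this in the result was not tested. Averaged over the 3 treatments, day 3 and 6 h differed by a median of 0.15 with 0 of 10 members at an unadjusted p under 0.05, beside 2.22% of all genes higher and 2.71% lower.

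**Figure D3:**
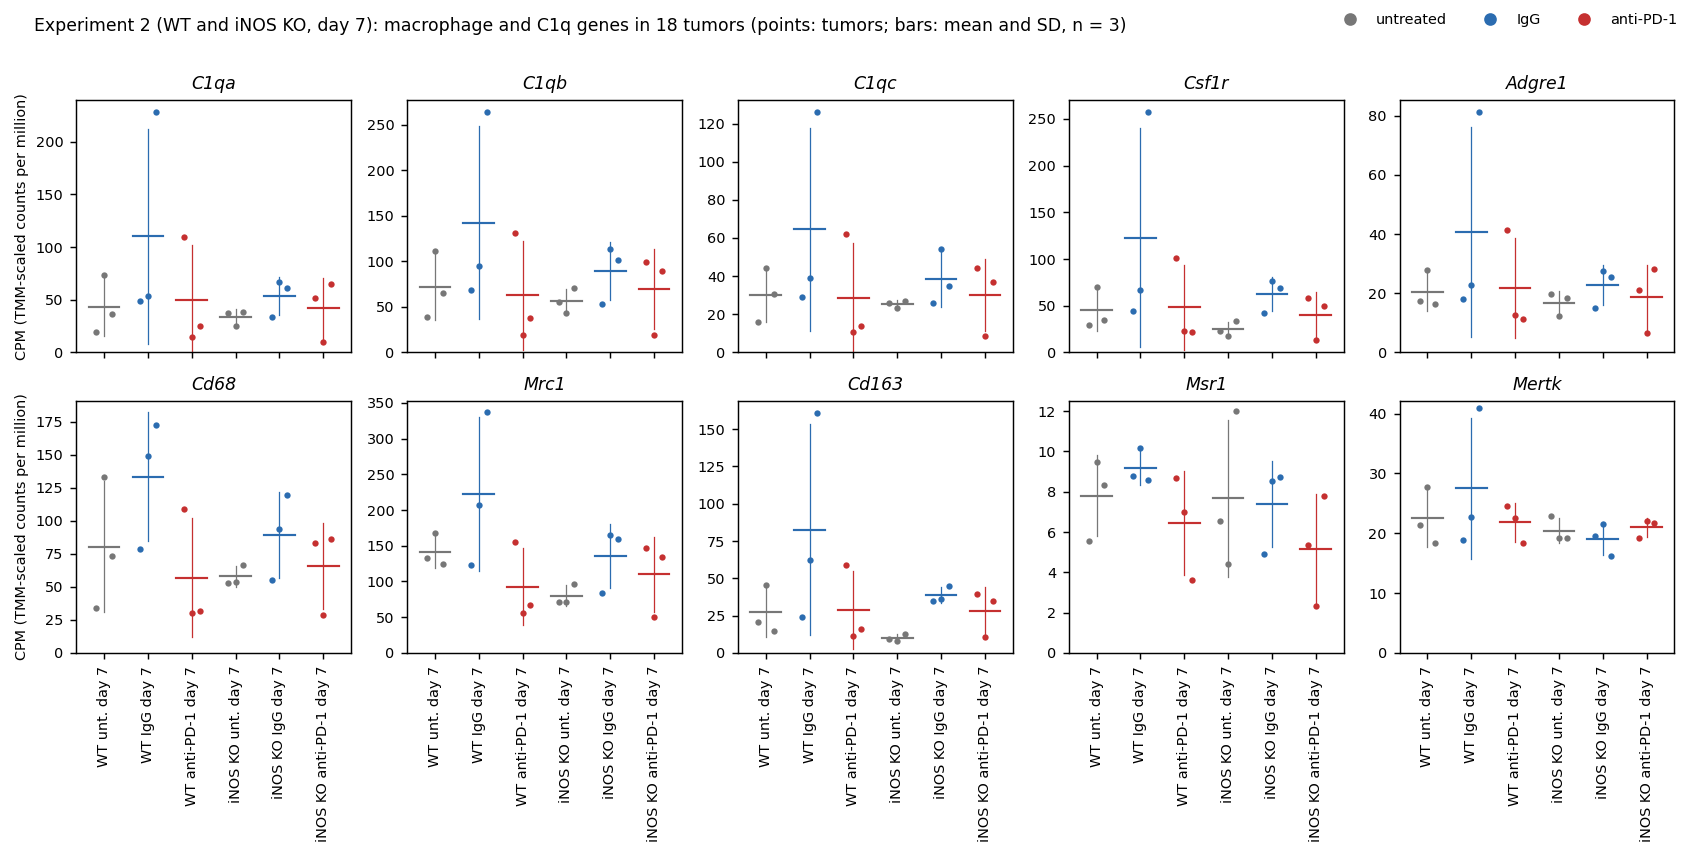
Level of each of the 10 genes in the 18 tumors of experiment 2 at day 7, in CPM, with 1 point per tumor and the mean and SD of each condition (n = 3). WT IgG replicate 3 is the highest point in 9 panels, and iNOS KO anti-PD-1 replicate 2 the lowest in 8.

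In experiment 2 all 10 members had their highest mean in IgG-treated WT tumors. C1qa averaged 110 ± 102 CPM there, against 42.9 ± 27.4 CPM in untreated and 49.8 ± 51.9 CPM in anti-PD-1-treated WT tumors. In tumors labelled iNOS KO it averaged 33.5 ± 7.73 CPM without treatment, 53.7 ± 17.9 CPM after IgG and 42 ± 29 CPM after anti-PD-1. Csf1r averaged 44.9 ± 22.3, 123 ± 117 and 48.2 ± 45.4 CPM in untreated, IgG-treated and anti-PD-1-treated WT tumors, and 24.8 ± 8.21, 62.3 ± 18 and 40.3 ± 24.2 CPM in the same order with iNOS KO. Untreated iNOS KO tumors had the lowest mean for 7 of the 10. None of the 5 neighbouring pairs of conditions was separated beyond mean ± SD for any member.

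WT IgG replicate 3 carried 1677 CPM over the 10 genes, against 462 and 728 CPM in the other tumors of its condition. WT anti-PD-1 replicate 2 carried 800 CPM, against 207 and 246 CPM in replicates 3 and 4. The tumor iNOS KO anti-PD-1 replicate 2 was the lowest of both experiments with 170 CPM, against 568 and 554 CPM in the other tumors of its condition. These 3 tumors lie in 3 different conditions, and comparisons of those conditions move with each of them.

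Anti-PD-1 against IgG in WT mice at day 7 gave negative log2 differences for all 10 members, with a median of -1.17, while the median over all genes was 0.68. C1qa was 109, 14.8 and 25.1 CPM after anti-PD-1 and 48.6, 53.9 and 228 CPM after IgG, a log2 difference of -1.14 (SE 0.69, adjusted p 0.36, edgeR). Csf1r was 101, 22.6 and 21.4 CPM against 44.1, 67 and 257 CPM, a log2 difference of -1.34 (SE 0.63, adjusted p 0.31, edgeR). In both, replicates 3 and 4 of the anti-PD-1 tumors lay below every IgG tumor and replicate 2 lay above 2 of them. All members overlapped, beside 2.85% of all genes that were lower without overlap, and 0 of 10 passed the adjusted threshold (0%). At an unadjusted p under 0.05, 4 members were lower (Mrc1, Cd163, Cd68 and Csf1r), beside 5.75% of all genes.

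Without anti-PD-1 replicate 2, 8 of the 10 members passed at an adjusted p under 0.05, namely Adgre1, Csf1r, Cd68, Mrc1, Cd163, C1qa, C1qb and C1qc, and the median was -2.21. In that fit 5.96% of 38079 genes passed and the median over all genes was 1.8. The 2 tumors that remain are those with the most receptor counts. Without the 3 libraries richest in receptor counts, replicate 2 is the only anti-PD-1 tumor left in WT mice and is assumed to vary like the other conditions. The median was then -0.13 and C1qa differed by 0.02. Without IgG replicate 3 the median was -0.32. With the receptor background as a covariate the members' median was -1.10, the median over all genes was -0.02, and no member passed. The size of the difference thus moved with single tumors of both conditions.

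In tumors labelled iNOS KO the anti-PD-1 against IgG comparison gave a median of -0.36. C1qa was 51.3, 9.43 and 65.2 CPM after anti-PD-1 and 33.3, 66.8 and 61.1 CPM after IgG, a log2 difference of -0.36 (SE 0.69). Csf1r was 58.3, 12.8 and 49.8 CPM against 42.1, 76.5 and 68.4 CPM, a log2 difference of -0.63 (SE 0.63). No member separated the conditions (3.32% of all genes did as higher, 3.77% as lower). Without anti-PD-1 replicate 2 the median was 0.07. The iNOS KO difference minus the WT difference had a median of 0.78, with C1qa at 0.78 (SE 0.98) and a smallest adjusted p of 0.70 among the members (edgeR). That median was 0.06 without WT IgG replicate 3 and 1.77 without WT anti-PD-1 replicate 2. Without the 3 libraries richest in receptor counts it was -0.29, with 7 of 10 members negative and C1qa at -0.37.

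IgG against untreated at day 7 was compared within each genotype. In WT mice the median was 0.99 with all 10 members positive, and none separated the conditions (6.79% of all genes did as higher). Without WT IgG replicate 3 it was 0.23. With iNOS KO the median was 0.65, with 8 members positive and 2 negative, against -0.45 over all genes. With the receptor background as a covariate it was 0.12, with 7 positive and 3 negative. In tumors labelled iNOS KO, Cd163 was 34.9, 36.2 and 45.1 CPM after IgG and 9.31, 8.10 and 13 CPM without treatment, a log2 difference of 1.93 (SE 0.61, unadjusted p 0.0059, adjusted p 0.26, edgeR). Csf1r was 42.1, 76.5 and 68.4 CPM after IgG and 22.5, 18 and 33.9 CPM without, a log2 difference of 1.33 (SE 0.63, adjusted p 0.31, edgeR). Both separated the conditions, 2 of 10 members beside 8.02% of all genes, and 0.188% of all genes passed the adjusted threshold. With only these 2 conditions in the fit, Cd163 and Csf1r passed, and the share of all genes that passed there is not given. Each replicate left out in turn kept Cd163 between 1.8 and 2.17.

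Averaged over both genotypes, a comparison added after the values were seen, Cd163 was higher after IgG than without treatment by 1.77 on the log2 scale (SE 0.43, unadjusted p 0.00066, adjusted p 0.12, edgeR). This was the smallest adjusted p of a member in any comparison, and unadjusted p-values under 0.05 with a higher level were reached by 3.93% of all genes. Csf1r followed with 1.39 (SE 0.44) and C1qa with 1.02 (SE 0.49). Mertk (0.10, SE 0.16) and Msr1 (0.09, SE 0.29) were close to no difference. Leaving out each of 4 tumors in turn brought Cd163 past the adjusted threshold. They were WT IgG replicate 1, WT untreated replicate 2 and iNOS KO untreated replicates 1 and 4. The share of all genes that passed in those fits is not given.

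Between untreated tumors of the 2 genotypes, Cd163 and Mrc1 were the members that did not overlap. Cd163 was 9.31, 8.10 and 13 CPM in untreated tumors labelled iNOS KO and 20.8, 45.6 and 15 CPM in untreated WT tumors, a log2 difference of -1.42 (SE 0.61, unadjusted p 0.033, adjusted p 0.30, edgeR). Mrc1 was 70.8, 71.8 and 96.7 CPM against 133, 168 and 125 CPM, a log2 difference of -0.83 (SE 0.40, adjusted p 0.30, edgeR). These were 2 of 10 members, beside 8% of all genes in that direction, while 0.587% of all genes passed the adjusted threshold. The median over members was -0.36 and that over all genes 0.49, and with the receptor background as a covariate they were -0.02 and -0.03. Csf1r (-0.85, SE 0.63) and C1qa (-0.36, SE 0.70) overlapped, and C1qa turned to 0.26 without WT untreated replicate 2.

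After IgG, the median difference between iNOS KO and WT was -0.73, and without WT IgG replicate 3 it was -0.02. C1qa differed by -1.03 (SE 0.69) and Csf1r by -0.98 (SE 0.62) there. After anti-PD-1 the median was -0.04. It was 1.01 without WT anti-PD-1 replicate 2, -0.94 with all 10 members negative without the 3 libraries richest in receptor counts, and -0.61 with the receptor background as a covariate. The median over all genes in that comparison was -0.91, and C1qa differed by -0.25 (SE 0.70) and Csf1r by -0.26 (SE 0.63). Neither comparison had a member without overlap, beside 6.43% and 17% of all genes that were lower. Averaged over the treatments, all 10 members were lower with iNOS KO, with a median of -0.37 against -0.19 over all genes. Cd163 had the widest difference (-0.84, SE 0.35, unadjusted p 0.026, adjusted p 0.34, edgeR), C1qa differed by -0.55 (SE 0.40) and Csf1r by -0.70 (SE 0.36), and 0.00973% of all genes passed. Cd163 was the 1 member lower at an unadjusted p under 0.05, beside 7.3% of all genes.

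The levels of the members went together from tumor to tumor. Over the 45 pairs of members, Spearman's rho had a median of 0.66 (0.16 to 0.95) over the 30 tumors of experiment 1 and 0.86 (0.18 to 0.98) over the 18 of experiment 2. These are descriptions, since CPM within a library share a total and conditions are mixed. Adgre1, Cd68, Csf1r and the C1q genes each had a median rho of 0.84 or more with the other members in experiment 1. Cd163 (0.53) and Msr1 (0.40) followed less closely, and Mertk had a median of 0.64 in experiment 1 and 0.29 in experiment 2.

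The proportion of the C1q chains varied more in experiment 1 than in experiment 2 in its range. Per kilobase of exon, C1qa, C1qb and C1qc made up 38.6%, 49.3% and 12.1% of their sum in the median tumor of experiment 1. In experiment 2 they made up 34.3%, 52.6% and 12.8%. All annotated exon bases were counted, 1040 for C1qa, 1088 for C1qb and 1931 for C1qc. The shares depend on these lengths, which may exceed those of the transcripts present. The tumors that departed most were IgG 6 h replicate 6, with 28.8% C1qa, 65.2% C1qb and 6.07% C1qc, and untreated 0 h replicate 3, with 57.7% C1qa and 34.1% C1qb. The first of these had little C1qa (25.7 CPM) and C1qc (10.1 CPM) beside the highest Msr1 of its experiment (20.4 CPM) and 211 CPM of Mrc1.

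**Figure D4:**
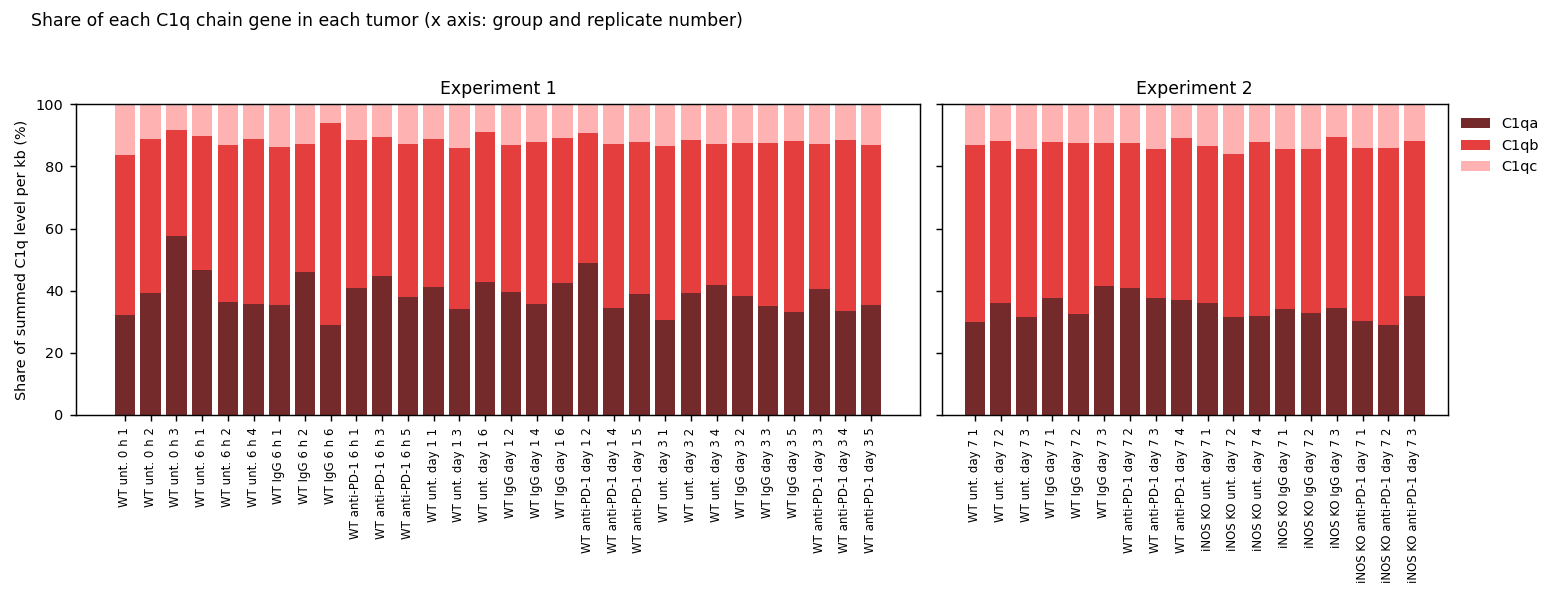
Share of C1qa, C1qb and C1qc in their summed level per kilobase (percent), with 1 stacked bar per tumor, for experiment 1 (left) and experiment 2 (right). C1qa lies between 28.8% and 57.7% in experiment 1 and between 29% and 41.6% in experiment 2.

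The genes outside the set whose pattern was most like the mean of the C1q chains over the 30 tumors of experiment 1, by Spearman's rho, were Cfp (0.96), Unc93b1 (0.96), Fkbp15 (0.95), Sdc3 (0.94) and Slc13a3 (0.94). Cfp encodes properdin, a regulator of the alternative complement pathway, and Unc93b1 encodes a protein that brings Toll-like receptors to endosomes. Over the 18 tumors of experiment 2 the same genes had rho values of 0.90, 0.96, 0.80, 0.87 and 0.87. Lyz2, the lysozyme gene of myeloid cells, was closest in experiment 2 (0.98) and had a rho of 0.90 in experiment 1.

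Other genes of macrophages and of the same pathways were counted in the same fits. Of 22 other macrophage genes, 0 passed the adjusted threshold in any comparison, and 22 had a positive difference between IgG and untreated tumors at day 3, with a median of 0.95. Among them, Ms4a7 had 10.1 CPM after IgG and 4.49 CPM without (log2 difference 1.17, SE 0.46) and Cd5l, a protein secreted by macrophages, had 3.19 and 0.49 CPM (2.69, SE 0.98), neither with overlap and both with an adjusted p of 1 in edgeR. At day 1, 20 of the 22 were positive, with Ctss, a lysosomal protease, at 1.13 (SE 0.39). In anti-PD-1 against IgG at day 7 in WT mice, 20 of the 22 were negative, with a median of -0.87 and 6 at an unadjusted p under 0.05.

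Complement genes outside C1q leaned the same way. The list of 9 holds, among others, the C1 proteases, C2, C3, C4b, the inhibitor Serping1 and the receptors C3ar1 and C5ar1, and 0 of the 9 passed in any comparison. Between IgG and untreated tumors, 9 of 9 were positive at day 1 (median 0.89) and 8 of 9 at day 3 (median 0.67). At day 7 the medians were 1.31 in WT mice and 0.96 with iNOS KO. C3 averaged 332 CPM in WT IgG tumors at day 7 and 52.4 CPM in untreated ones (log2 difference 2.67, SE 0.91, adjusted p 0.57, edgeR). C2 went the other way, with 40.3 CPM after IgG and 65.9 CPM without (-0.71, SE 0.19).

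Of the ligands Csf1 and Il34 of the CSF1 receptor, the MERTK ligands Gas6 and Pros1 and the related receptors Axl and Tyro3, 0 of 6 passed in any comparison. Between IgG and untreated tumors at day 1, Axl was 153 CPM against 86.2 CPM (log2 difference 0.83, SE 0.34) and Il34 was 2.73 CPM against 0.84 CPM (1.70, SE 0.72), both with an adjusted p of 0.86 in edgeR. Gas6 averaged 51.4 CPM after IgG and 20.3 CPM without treatment in WT mice at day 7 (1.34, SE 0.54), and 23.9 CPM after anti-PD-1. In the comparison of anti-PD-1 with IgG there, Csf1 was 43.1 CPM against 72.7 CPM (-0.75, SE 0.30).

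Transcripts of fibroblasts and leukocytes went with the members in both experiments. The summed level of the 10 genes had a Spearman's rho of 0.88 with the sum of 5 fibroblast genes and 0.875 with that of 5 leukocyte genes over the 30 tumors of experiment 1, and of 0.96 and 0.96 over the 18 of experiment 2. For the melanoma genes rho was -0.74 and -0.10. For T cell genes it was -0.02 and 0.07, and for B cell genes -0.31 and -0.46. Endothelial genes had a rho of 0.10 in experiment 1 and 0.90 in experiment 2, NK cell genes of 0.57 and -0.09, and neutrophil genes of 0.58 and 0.40. For dendritic cell genes it was 0.50 in experiment 1 and close to 0 in experiment 2. The sums share a library total and the conditions are mixed, so these values carry no test.

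**Figure D5:**
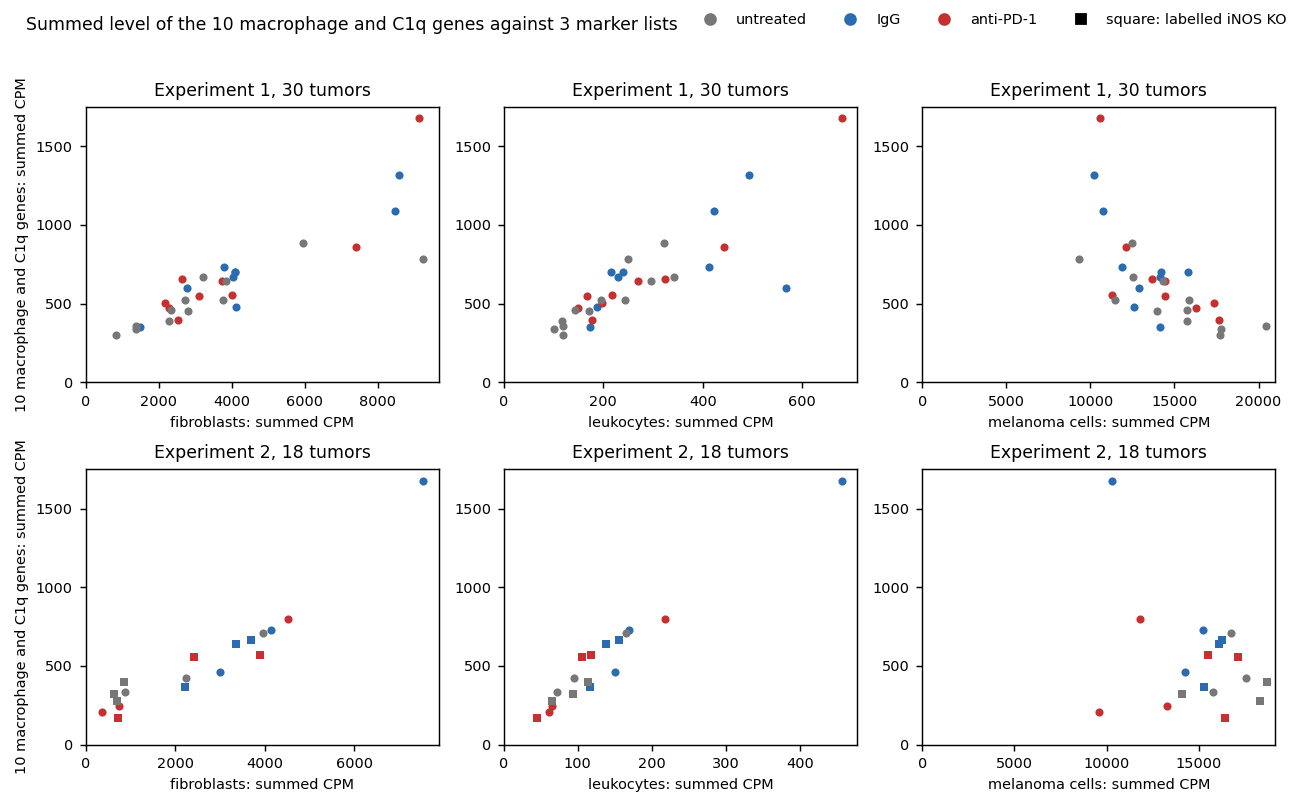
Summed CPM of the 10 genes (vertical axis) against the summed CPM of fibroblast, leukocyte and melanoma genes (horizontal axes), with 1 point per tumor, for experiment 1 (top, 30 tumors) and experiment 2 (bottom, 18 tumors). Tumors rich in the 10 genes were rich in fibroblast and leukocyte genes.

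The same lists differed between the conditions compared above. At day 3 the sums of the fibroblast genes Col1a1, Col1a2, Col3a1, Pdgfra and Dcn were 3801 to 4091 CPM after IgG and 830 to 2797 CPM without treatment, and those of the leukocyte genes were 229 to 413 CPM and 118 to 196 CPM. At day 1 the leukocyte sums were 422 to 567 CPM after IgG and 144 to 323 CPM without. At day 1, IgG replicate 6 also held 3900 CPM of skeletal muscle genes and 652 CPM of keratinocyte genes. At day 7 the fibroblast sums in tumors labelled iNOS KO were 2217 to 3696 CPM after IgG and 636 to 863 CPM without. In WT mice they were 368 and 754 CPM in anti-PD-1 replicates 3 and 4 and 4515 CPM in replicate 2, against 3007 to 7526 CPM after IgG. No gene of the fibroblast, leukocyte or melanoma lists was at 0 in all tumors of a condition. The part of these lists in the members' differences was not tested.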

How the data were processed

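RNA of 48 whole tumors was sequenced. Per the labels and the study's methods, the authors trimmed reads with cutadapt (1.8.1), aligned them to mm10 with STAR (2.7.7a) and estimated counts per gene with RSEM (1.3.0) on GENCODE vM21, and the deposited table holds whole-number counts that are not normalized. The table is named for another counter, featureCounts, so which tool made its counts is not settled. All 55450 gene identifiers matched vM21. The 2 experiments were analysed apart with edgeR (4.0.16, R 4.3.3). Its quasi-likelihood test was run with TMM scaling and a coefficient for every condition. Genes were kept by filterByExpr (minimum count 10), which gave 26848 and 30837 genes and 20 and 12 residual degrees of freedom. Benjamini-Hochberg adjustment ran across every gene tested, at a threshold of 0.05. CPM are counts divided by the TMM-scaled library total and put on a common scale. The members and lists were chosen with earlier results of these data known, and 3 of 23 comparisons were added after the values were seen. By rule, log2 differences were given for members past the threshold and for members whose conditions did not overlap. C1qa and Csf1r were also given in anti-PD-1 against IgG and iNOS KO against WT. For list genes, up to 4 per comparison with the smallest adjusted p were given. Other members fall outside this rule and were picked by their values, such as Msr1 in IgG against untreated at 6 h and Cd163 at day 3 against 0 h. Likeness used log2 CPM with a pseudocount of 0.5. The fits were also run on simulated data. The outcome is not given here, so it does not show how small a difference they could detect. DESeq2 (1.42.0), other scaling, no filter, a background covariate, a replicate block and leaving out each tumor were alternatives. The median depth was 37544682 and 34916323 counts, and 3 counts, the detection limit, were at most 0.105 and 0.197 CPM. Replicates are tumors of separate mice, and no 2 files agreed within sampling noise. Intervals are at the 95% level.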

Additional observations from a re-analysis of the deposited data

How the results depend on the processing

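In experiment 1, no alternative brought a member past the adjusted threshold. In experiment 2, with no filter on low counts, the members that passed were 8 in anti-PD-1 against IgG in WT, 6 in IgG against untreated in WT, 4 in the same with iNOS KO, and 3 each in iNOS KO against WT untreated, after IgG and averaged over the treatments. In IgG against untreated averaged over both genotypes they were 8. DESeq2's Wald test passed 1 in anti-PD-1 against IgG in WT and 1 in that average. With only the conditions compared in the fit, 2 passed in IgG against untreated with iNOS KO and 1 in the average. Leaving out each tumor, the count ranged from 0 to 8 in anti-PD-1 against IgG in WT, where 8 passed without WT anti-PD-1 replicate 2, and from 0 to 1 in the average (Cd163, without WT IgG replicate 1, WT untreated replicate 2 or iNOS KO untreated replicate 1 or 4). In the other comparisons it stayed at 0. Apart from the fit without WT anti-PD-1 replicate 2, the share of all genes that passed is not given beside these counts. They are therefore not read as a result about the members.

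Some log2 differences changed sign, not all of them near 0 in the main fit, and the cause was not tested. For anti-PD-1 against IgG, C1qa was 0.0031 at day 1 with the background covariate, and at day 3 C1qa was 0.011 and Csf1r 0.045 with the replicate block. Averaged over the times, C1qa was -0.0027 by DESeq2's Wald test, -0.0029 with DESeq2's size factors and -0.045 with the replicate block. At day 7 in WT, C1qa, far below 0 in the main fit, was 0.015 without the 3 libraries with most receptor counts. For iNOS KO against WT, untreated, C1qa was 0.19 with the background covariate and 0.059 with the replicate block.

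The members' median for IgG against untreated ranged from -0.37 to 0.47 at 6 h, from 0.45 to 1.16 at day 1 and from 0.50 to 0.90 at day 3 without single tumors. Leaving out each tumor, anti-PD-1 against IgG ranged at 6 h from -0.026 to 1.14 for C1qa and from -0.030 to 0.89 for Csf1r, and at day 1 from -0.68 to 0.29 and from -1.29 to 0.15. At day 3 Csf1r ranged from -0.49 to 0.018. Averaged over the times, C1qa ranged from -0.19 to 0.30 and Csf1r from -0.40 to 0.13, and with iNOS KO C1qa ranged from -0.82 to 0.13. For iNOS KO against WT, C1qa ranged from -0.71 to 0.26 untreated, from -1.34 to 0.073 after IgG and from -0.70 to 1.11 after anti-PD-1, and Csf1r from -1.32 to 0.17 after IgG and from -0.67 to 0.93 after anti-PD-1.

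Replicate numbers shared between conditions did not mark pairs: the correlation of deviations of same-numbered tumors had a median of -0.03 over 65 pairs in experiment 1 (-0.40 to 0.41) and of -0.02 over 36 pairs in experiment 2 (-0.35 to 0.49). The replicate block brought 0 members past the threshold in every comparison it was run on. Every member had at least 75 counts in each library, and conditions held 3 tumors each.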
